A study of Mus musculus with 36 samples.

Results

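The tubulin isotypes are the genes of the alpha and beta tubulin family, and 10 of them are described here across the livers of fed, fasted and CL316243-treated mice. They were taken by symbol among the 37061 genes of the array: Tuba1a, Tuba1b, Tuba1c, Tuba4a and Tuba8 of the alpha family, and Tubb2a, Tubb2b, Tubb4b, Tubb5 and Tubb6 of the beta family, with 16 of the 56605 probes. The set was chosen by name with earlier results of these arrays known, among them the higher Tuba8 signal of fed AAKO livers, so that difference is given below as a description without a test. Which values led to the other symbols is not recorded, and the adjusted p-values given for them describe these arrays and are not independent evidence for the set.

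Liver RNA of 36 male C57Bl/6J mice was measured on 1 Agilent array per mouse, with 6 mice in each of 6 groups. CTRL mice were the controls and AAKO mice lacked the lipase ATGL in white adipose tissue; the driver of the deletion and the ages of the mice are not given in the sources used here. Mice of each genotype were fed freely, deprived of food for 24 h, or fed and treated with CL316243, which activates the beta 3 adrenergic receptor of adipocytes and so their fat breakdown, at 3 mg/kg by gavage in carboxymethyl cellulose at Zeitgeber time 10. All were killed at Zeitgeber time 16. The fed groups were experiment 2 and the fasted and CL316243 groups experiment 1, so in any difference from the fed groups the condition and the experiment cannot be told apart, and a gavage is named for the CL316243 groups only. The genotypes of 1 condition, and fasted and CL316243 livers, were each handled in the same experiment.

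Alpha and beta tubulin form the dimer from which microtubules are built. Each is encoded by several genes whose products share most of their sequence and differ mainly in the acidic tail at the C-terminal end, which is where glutamate chains are added and where the terminal tyrosine of alpha tubulin is removed and restored. In hepatocytes microtubules carry lipoprotein and secretory vesicles, lipid droplets and endosomes, and sort proteins towards the bile canaliculus. Cells also hold tubulin mRNA in check: when free dimer is in excess, the adaptor TTC5 recognises newly made tubulin on the ribosome and its mRNA is degraded.

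Levels are given as log2 of processed signal over the 75th percentile of its array, so 0 is the brightness of that percentile and 1 unit is a doubling. A level belongs to a probe, so levels are compared between groups and not between genes. Tuba8 and Tubb4b, which differed between genotypes in fasted livers, were read by probes over the end of the coding sequence. Their sequences, as deposited and 60 bases long, are given here with the stop codon of the longest frame that ends inside the probe in capitals. That frame spans 17 codons in the Tuba8 probe and 12 in the Tubb4b probe, stop codon included.

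Tuba8 probe: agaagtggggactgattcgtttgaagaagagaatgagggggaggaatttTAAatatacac

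Tubb4b probe: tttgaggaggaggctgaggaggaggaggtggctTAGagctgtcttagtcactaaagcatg

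The letters before each stop codon are rich in codons for acidic residues and belong to the tail in which isotypes differ most. Over 498 pairs of a member probe with a probe of another tubulin gene or pseudogene, of a ring complex protein or of the unnamed transcript TC1651530, the longest shared run without a gap was 11 bases (Tuba8 with TC1651530). The best alignment without gaps matched 28 bases (probe 2 of Tuba1b with Tuba3b). Probes were compared with probes and not with whole transcripts, so these values cannot show how specific a probe is. Cross-reading between these genes was not measured. The positions of the members follow mm9, the assembly of the files. Tuba1a (chr15:98780266-98780325 for probe 2), Tuba1b (chr15:98761923-98761982 and chr15:98762319-98762378) and Tuba1c (chr15:98868477-98868536) lie on chromosome 15. The files put the probe of Tuba8 at chr6:121176046-121176105, that of Tubb5 at chr17:35971872-35971931, that of Tubb2b at chr13:34219092-34219151 and probe 2 of Tubb4b at chr2:25078148-25078207. For Tubb2a on chromosome 13 a stretch of 30 bases is listed, from 34166116 to 34166145. The files do not label probes as exonic or untranslated.

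RefSeq promoter windows on GRCm38.p6 were matched for 8 members, all except Tubb2b and Tubb6. The upstream bases, which end at the base before the annotated start, were searched on both strands over 250 bases for the TATA box as TATAAA, the CCAAT box as CCAAT, the GC box as GGGCGG, the E-box core as CACGTG and the palindrome of the cyclic AMP response element as TGACGTCA; the E-box core and that palindrome read the same on both strands, and matches of different motifs did not share bases in the windows printed. Windows are printed, with matches in capitals, for Tuba8, whose signal was higher after fasting in both genotypes, and Tubb2a, called higher in CTRL only. Those of Tuba1b and Tubb5, whose signal was lower in both genotypes, follow. In this order the windows lie at chr6:121210519-121210733 on the plus strand, chr13:34078009-34078128, chr15:98934391-98934510 and chr17:35838302-35838421 on the minus strand.

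Tuba8 upstream: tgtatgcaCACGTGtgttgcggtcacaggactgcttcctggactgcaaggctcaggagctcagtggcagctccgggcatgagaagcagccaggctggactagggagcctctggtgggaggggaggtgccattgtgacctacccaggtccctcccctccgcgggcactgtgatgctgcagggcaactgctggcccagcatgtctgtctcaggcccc

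Tubb2a upstream: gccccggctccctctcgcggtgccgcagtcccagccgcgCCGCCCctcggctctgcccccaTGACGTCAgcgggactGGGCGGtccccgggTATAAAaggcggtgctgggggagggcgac

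Tuba1b upstream: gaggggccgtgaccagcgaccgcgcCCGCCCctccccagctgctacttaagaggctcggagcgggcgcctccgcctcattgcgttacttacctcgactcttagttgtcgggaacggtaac

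Tubb5 upstream: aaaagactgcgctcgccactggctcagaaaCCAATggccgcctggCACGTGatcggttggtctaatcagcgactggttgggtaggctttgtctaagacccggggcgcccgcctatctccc

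Tubb2a was the only one of the 8 members with the TATA box, which 12.4% of all 32851 windows held, and the only one with the cyclic AMP response element, which 1.55% held. The E-box core was found upstream of Tuba8 and Tubb5 (6.02% of all windows). The CCAAT box was found in 4 of the 8 windows (33.8% of all), and Tubb4b held 5 copies. The GC box was found in 5 of the 8 (32.7% of all). These are matches of letters and say nothing of binding.

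After fasting, the alpha tubulins Tuba1a, Tuba1b, Tuba1c and Tuba4a and the beta tubulin Tubb5 were lower in both genotypes, while Tuba8 was higher in both. Of the 9 members that passed the filter on dim probes, 8 were called in CTRL (2 higher and 6 lower; 43.8% of all 24097 genes were called) and 8 in AAKO (2 higher and 6 lower; 63.6% of all genes). A gene is called here at a limma adjusted p under 0.05 over all genes. The median log2 difference of the 9 was -0.72 in CTRL and -1.05 in AAKO, against -0.05 and -0.10 over all genes. The groups did not overlap for 5 members in CTRL and 8 in AAKO, against 22.8% and 42.7% of all genes. The counts of calls and of groups without overlap hold Tuba8, whose fed genotype difference was known at the choice. The 2 comparisons use different mice, but each also compares experiments.

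Tuba1b, one of the broadly expressed alpha tubulins, had the smallest error relative to its fall. In fed livers its level ran from 5.16 to 5.66 in CTRL (median 5.34) and from 5.32 to 5.83 in AAKO (median 5.47). In fasted livers it ran from 3.62 to 4.05 in CTRL (median 3.89) and from 3.72 to 4.24 in AAKO (median 4.09). Every fasted liver lay below every fed liver. The log2 difference was -1.49 ± 0.12 in CTRL (SE, adjusted p = 2.36e-11) and -1.48 ± 0.12 in AAKO (adjusted p = 4.4e-12), or 2.82-fold and 2.79-fold lower.

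Tuba1c, the third broadly expressed alpha gene, is read by a probe printed on 10 spots. Its mean level was 6.75 ± 0.14 in CTRL fed, 6.73 ± 0.32 in AAKO fed, 5.21 ± 0.25 in CTRL fasted and 5.32 ± 0.18 in AAKO fasted (SD, n = 6). Fasted livers were lower by -1.54 ± 0.16 on the log2 scale in CTRL (adjusted p = 2.07e-09) and -1.41 ± 0.16 in AAKO (adjusted p = 2.73e-09), without overlap. Both other probes of the gene were also lower: probe 2 had means of 2.78 and 1.18 in fed and fasted CTRL livers, and probe 3 of 2.43 and 0.76.

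Tuba1a, best known from developing neurons, stood near the 75th percentile. Its level ran from -0.19 to 0.95 in CTRL fed, from 0.41 to 0.73 in AAKO fed, from -1.63 to -0.67 in CTRL fasted and from -1.10 to 0.04 in AAKO fasted. The difference was -1.40 ± 0.20 in CTRL (adjusted p = 8.07e-07) and -1.08 ± 0.20 in AAKO (adjusted p = 1.98e-05). Tuba4a, an alpha tubulin whose gene does not encode the terminal tyrosine, was lower by -0.91 ± 0.18 in CTRL (adjusted p = 7.35e-05) and -1.05 ± 0.18 in AAKO (adjusted p = 4.47e-06). The lowest CTRL fed liver, at 0.80, lay below the highest CTRL fasted liver, at 0.87. Tubb5, the common beta tubulin of dividing and resting cells, had means of 3.41 ± 0.25 and 3.60 ± 0.25 in fed CTRL and AAKO livers and of 2.75 ± 0.07 and 2.75 ± 0.17 in fasted ones (SD, n = 6). Its differences were -0.66 ± 0.15 (adjusted p = 0.000469) and -0.85 ± 0.15 (adjusted p = 7.33e-06).

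Tuba8, a divergent alpha tubulin whose tail ends in phenylalanine in place of tyrosine, moved the other way. CTRL fed livers ran from 0.24 to 1.01 (median 0.47) and CTRL fasted livers from 1.98 to 2.88 (median 2.32). AAKO fed livers ran from 1.30 to 2.43 (median 1.80) and AAKO fasted livers from 3.20 to 3.71 (median 3.53). Fasted and fed livers did not overlap in either genotype. The difference was 1.80 ± 0.21 in CTRL, 3.48-fold, and 1.63 ± 0.21 in AAKO, 3.11-fold. Both use the fed groups whose difference was known at the choice, so no p-value is given. Tubb2a, one of a neighbouring pair of beta tubulin genes on chromosome 13, was higher by 1.05 ± 0.34 in fasted CTRL livers (adjusted p = 0.0129), with overlap, and differed by 0.56 ± 0.34 in AAKO (adjusted p = 0.162).

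**Figure D1:**
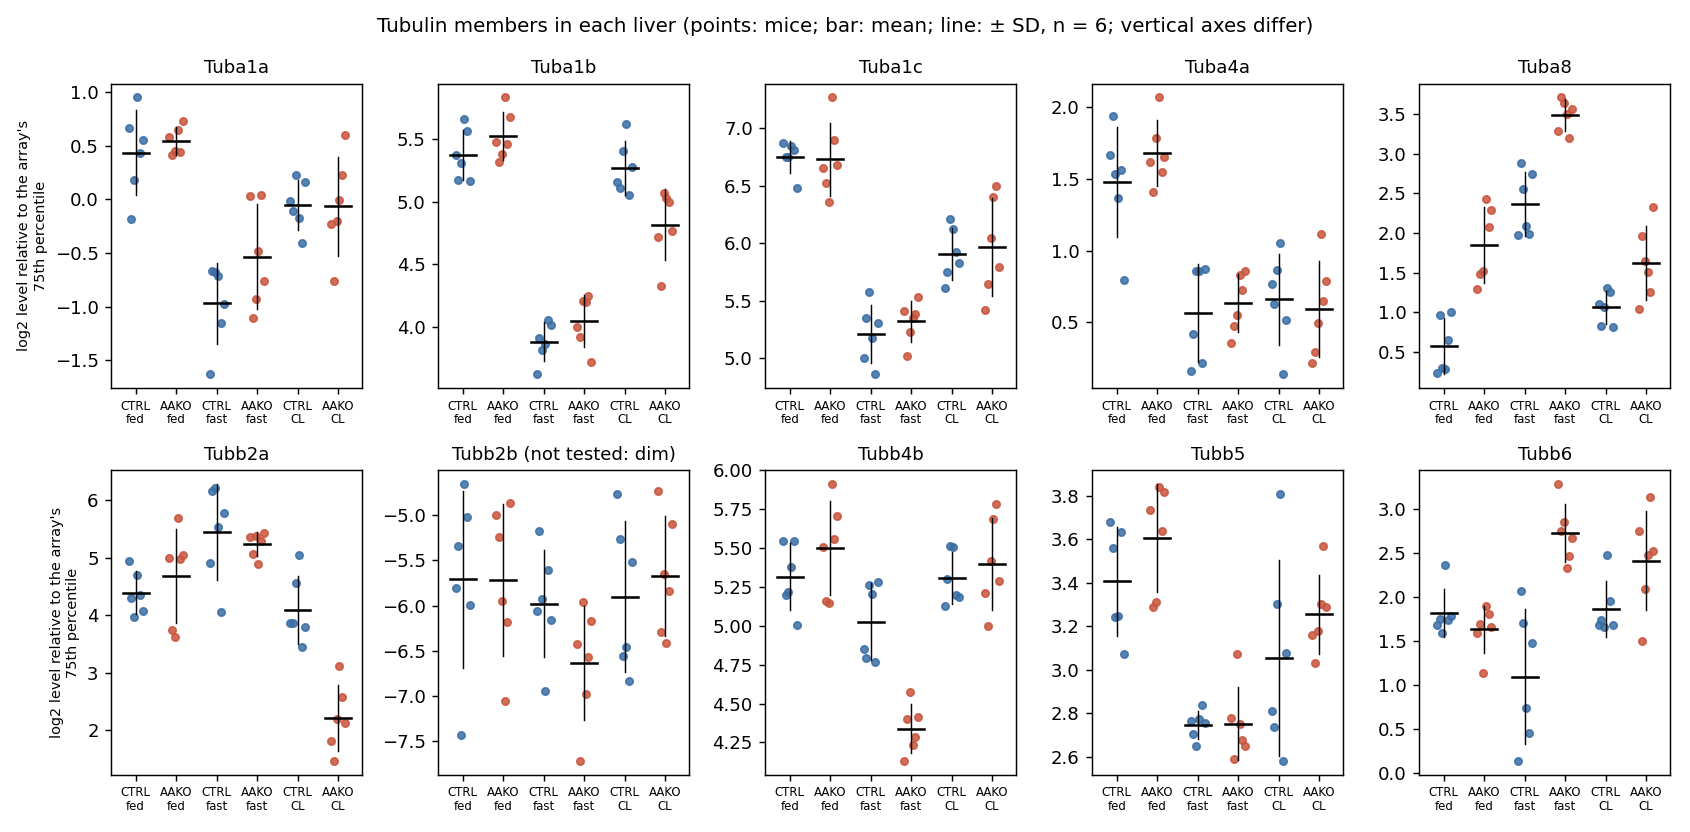
Log2 level of each tubulin gene over the 75th percentile (vertical axis, different for each gene) in the 6 groups; points are mice, bars are means and vertical lines ± SD (n = 6), CTRL in blue and AAKO in red. Tuba1b, Tuba1c and Tuba1a sit lowest in the fasted groups and Tuba8 highest, while Tubb2a is lowest in AAKO CL316243 at 2.22.

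**Figure D2:**
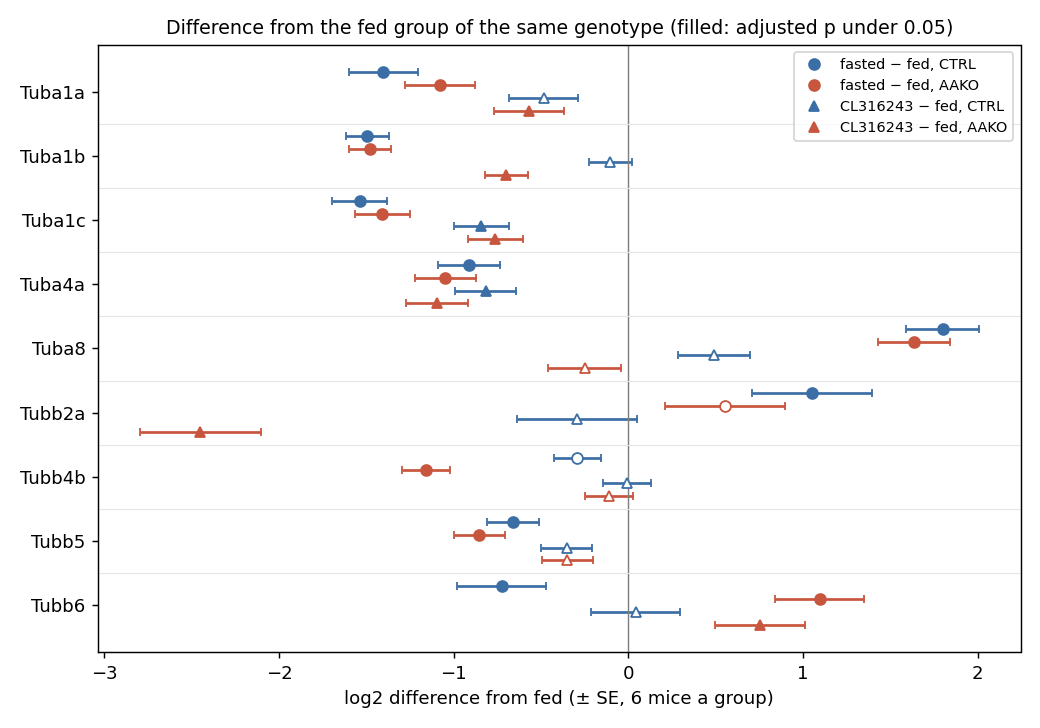
Log2 difference of each tested member from the fed group of its genotype (horizontal axis, ± SE) after fasting (circles) and CL316243 (triangles), with filled symbols for an adjusted p under 0.05. Tuba8 is set against fed groups whose difference was known when the genes were chosen. Tubb6 lies at -0.72 in fasted CTRL livers and 1.096 in fasted AAKO livers, on opposite sides of 0.

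The fed groups share no experiment with the others, so the same members were set against CL316243 livers, which were handled in the experiment of the fasted ones. The CL316243 livers had their own treatment and gavage, so each difference holds any response to these as well as to fasting. Fasted livers differed from CL316243 livers for 6 of 9 members in CTRL (2 higher and 4 lower; 37.1% of all genes called) and for 7 of 9 in AAKO (2 higher and 5 lower; 60% of all genes called). The groups did not overlap for 4 members in each genotype, against 17.9% of all genes in CTRL and 37.3% in AAKO. Beside these differences, endothelial markers were higher in fasted livers for 4 of 6 genes and stellate cell markers for 3 of 6 in each genotype. Dividing cell markers were lower for 4 of 5 in CTRL and 0 of 5 in AAKO, and in AAKO neutrophil markers were higher for 4 of 5 and hepatocyte markers lower for 4 of 6 and higher for 1. The part of these cells in the tubulin values was not tested. Tuba1b was lower in the fasted livers by -1.39 ± 0.12 in CTRL (adjusted p = 2.29e-10) and -0.78 ± 0.12 in AAKO (adjusted p = 2.06e-06). Tuba1c was lower by -0.70 ± 0.16 (adjusted p = 0.000666) and -0.65 ± 0.16 (adjusted p = 0.000718), and Tuba1a by -0.92 ± 0.20 (adjusted p = 0.00043) and -0.51 ± 0.20 (adjusted p = 0.0292). The Tuba1a call in AAKO was lost without any 1 of 5 arrays, AAKO fasted replicates 2, 3 and 6 and AAKO CL316243 replicates 5 and 6, with adjusted p up to 0.107. Probe 2 of Tuba1b gave 0.19 ± 0.50 in CTRL and -0.57 ± 0.50 in AAKO, neither called, on all arrays, and -0.67 ± 0.14 (adjusted p = 0.000305) and -0.52 ± 0.13 (adjusted p = 0.00123) without the 1 array that stood far below its group. Probe 2 of Tuba1c gave -0.34 ± 0.16 in AAKO and was not called (adjusted p = 0.0595).

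Tuba8 was higher in fasted than in CL316243 livers by 1.31 ± 0.21 in CTRL (adjusted p = 6.31e-06) and 1.88 ± 0.21 in AAKO (adjusted p = 2.55e-09), with no overlap. Tubb2a was higher in fasted livers by 1.35 ± 0.34 in CTRL (adjusted p = 0.00222) and by 3.00 ± 0.35 in AAKO, 8.02-fold (adjusted p = 6.13e-09). Against fed AAKO livers, of the other experiment, Tubb2a differed by 0.56 ± 0.34 in fasted livers (adjusted p = 0.162). In CL316243 livers that difference was -2.45 ± 0.35 (adjusted p = 2e-06). For Tuba4a the 2 probes differed in fasted against CL316243 livers. Probe 1 gave -0.10 ± 0.18 in CTRL and 0.05 ± 0.18 in AAKO, neither called, and probe 2 gave -0.40 ± 0.16 (adjusted p = 0.0456) and -0.81 ± 0.16 (adjusted p = 5.47e-05). Tubb4b and Tubb5 were lower in fasted than in CL316243 livers of AAKO mice (-1.05 ± 0.14 with adjusted p = 7.44e-08, and -0.50 ± 0.15 with adjusted p = 0.00401), and in CTRL their differences of -0.28 ± 0.14 and -0.31 ± 0.15 did not pass. Tubb6 was lower in fasted CTRL livers by -0.77 ± 0.26 (adjusted p = 0.0173) and differed by 0.34 ± 0.26 in AAKO (adjusted p = 0.261). The CTRL call of Tubb6 was lost without CTRL fasted replicate 1 (-0.59) or 5 (-0.62) or CTRL CL316243 replicate 4 (-0.66).

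CL316243 livers differed from fed livers for 2 of 9 members in CTRL, both lower (23.1% of all genes called), and for 6 of 9 in AAKO, 1 higher and 5 lower (31.4% of all genes called). Beside these, Kupffer cell markers were lower for 4 of 6 genes in CTRL and 5 of 6 in AAKO, endothelial markers for 5 and 3 of 6 and stellate cell markers for 4 of 6 in each, with none higher in these lists, and their part was not tested. Tuba1c was lower by -0.84 ± 0.16 in CTRL (adjusted p = 0.00019) and -0.76 ± 0.16 in AAKO (adjusted p = 0.000369). Tuba4a was lower by -0.82 ± 0.18 (adjusted p = 0.000913) and -1.09 ± 0.18 (adjusted p = 1.41e-05). Both genes were also lower after fasting. In AAKO the test was also passed by Tuba1b (-0.70 ± 0.12, adjusted p = 4.88e-05), Tuba1a (-0.57 ± 0.20, adjusted p = 0.0288), Tubb6 (0.76 ± 0.26, adjusted p = 0.0235) and Tubb2a. The call of Tuba1a did not hold without AAKO fed replicate 4 (-0.52) or AAKO CL316243 replicate 2 (-0.45), 3 (-0.50) or 4 (-0.55), and that of Tubb6 without AAKO fed replicate 3 (0.63) or AAKO CL316243 replicate 4 (0.71) or 5 (0.63). For Tuba1b, probe 2 without its outlying array was lower in both genotypes, by -0.79 ± 0.14 in CTRL (adjusted p = 0.000129) and -0.78 ± 0.13 in AAKO (adjusted p = 3.65e-05), while probe 1 gave -0.10 ± 0.12 in CTRL (adjusted p = 0.602).

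Tubb2a showed the widest range of group means, 3.23 log2 units. Its level ran from 3.97 to 4.95 in CTRL fed (median 4.33), from 3.63 to 5.69 in AAKO fed (median 4.99), from 4.05 to 6.22 in CTRL fasted (median 5.66) and from 4.89 to 5.44 in AAKO fasted (median 5.33). After CL316243 it ran from 3.46 to 5.05 in CTRL (median 3.86) and from 1.47 to 3.11 in AAKO (median 2.16). All 6 AAKO CL316243 livers lay below every other liver. The 5 other groups, ordered by their means, each overlapped the next. AAKO livers were lower than CTRL livers after CL316243 by -1.87 ± 0.35, 3.64-fold (adjusted p = 0.000131), and lower than fed AAKO livers by -2.45 ± 0.35, 5.46-fold (adjusted p = 2e-06). The genotype difference changed from fed to CL316243 livers by -2.15 ± 0.49 (interaction, adjusted p = 0.00313) and was higher in fasted than in CL316243 livers by 1.66 ± 0.49 (adjusted p = 0.00902). Within wash batch 1 the CL316243 genotype difference was -2.13 ± 0.53 and within wash batch 2 -1.42 ± 0.45, the latter with adjusted p = 0.0828 on fewer arrays.

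In fed livers 1 of the 9 members, Tuba8, was among the genes past the threshold between genotypes (0.0788% of all genes, 19 of 24097). This difference was known when the genes were chosen and carries no test here. The 6 AAKO fed livers lay between 1.30 and 2.43 and the 6 CTRL fed livers between 0.24 and 1.01, with means of 1.85 ± 0.48 and 0.57 ± 0.35 (SD, n = 6), a log2 difference of 1.28. It was 1.50 within wash batch 1 and 1.06 within wash batch 2. The other 8 members had genotype differences between -0.19 (Tubb6) and 0.29 (Tubb2a) in fed livers, with adjusted p from 0.828 to 0.992.

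In fasted livers the genotypes differed for 3 of 9 members, Tuba8 and Tubb6 higher and Tubb4b lower in AAKO (49.2% of all genes called), and for all 3 the groups did not overlap (21.2% of all genes). Outside this count, probe 2 of Tuba4a was lower in AAKO (-0.42 ± 0.16, adjusted p = 0.0306), while probe 1 gave 0.07 ± 0.18 (adjusted p = 0.779). Tuba8 was higher by 1.11 ± 0.21, 2.16-fold (adjusted p = 3.74e-05), in mice other than those of the fed comparison. In CL316243 livers its difference was 0.54 ± 0.21 (adjusted p = 0.0556), with AAKO from 1.05 to 2.33 and CTRL from 0.82 to 1.31. It was called with the authors' deposited log2 table (0.53, adjusted p = 0.0452), without the wash batch (0.56, adjusted p = 0.0475), with the slide as a factor (0.61, adjusted p = 0.0442), with the replicate block (0.55, adjusted p = 0.0324) and without AAKO CL316243 replicate 1 (0.66, adjusted p = 0.0186) or 5 (0.62, adjusted p = 0.038). It was not called with the other background correction, with quantile scaling, without the filter on dim probes or with the mean of probes. Nor was it called with only the compared groups, in either wash batch alone, or without any other array of these groups. The genotype difference of Tuba8 in fasted livers minus that in CL316243 livers was 0.57 ± 0.29 (adjusted p = 0.139). Its changes from the fed livers, -0.16 for fasting and -0.74 for CL316243, hold the difference known at the choice and are given without a test.

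Tubb6, a beta tubulin more distant from the others and found in many cell types, had the largest genotype difference of the 9 in fasted livers. Its probe lies at chr18:67562310-67562369 on mm9. CTRL fasted livers spread from 0.14 to 2.07 (median 1.11) and AAKO fasted livers from 2.33 to 3.29 (median 2.72). AAKO was higher by 1.63 ± 0.26, 3.10-fold (adjusted p = 3.07e-06). Against fed livers Tubb6 was lower in fasted CTRL (-0.72 ± 0.26, adjusted p = 0.021) and higher in fasted AAKO (1.096 ± 0.26, adjusted p = 0.000383), and the interaction was 1.82 ± 0.36 (adjusted p = 0.000193). The interaction was 1.84 within wash batch 1 and 1.80 within wash batch 2. The fall in fasted CTRL lost its call without CTRL fed replicate 4 or without CTRL fasted replicate 1 or 5 (adjusted p up to 0.0828), and the means of fed and fasted CTRL livers differed by less than the SD of 0.76 in the fasted group. After CL316243 the AAKO level was 2.42 ± 0.56 and the CTRL level 1.87 ± 0.32, a difference of 0.52 ± 0.26 (adjusted p = 0.139).

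Tubb4b, the beta tubulin shared by cilia and most other microtubules, differed between genotypes in fasted livers, and both of its probes showed it. Probe 1 ran from 4.77 to 5.28 in CTRL fasted and from 4.13 to 4.57 in AAKO fasted, a difference of -0.69 ± 0.14 (adjusted p = 9.87e-05). Probe 2 ran from 2.36 to 3.08 and from 1.70 to 2.14, a difference of -0.83 ± 0.16 (adjusted p = 4.7e-05). In all other groups the mean of probe 1 lay between 5.03 and 5.50. The interaction with fasting was -0.87 ± 0.19 (adjusted p = 0.000715), and the genotype difference was also lower in fasted than in CL316243 livers (-0.77 ± 0.19, adjusted p = 0.00261). Fasted AAKO livers were lower than fed ones by -1.16 ± 0.14 (adjusted p = 8.36e-09); in CTRL the difference was -0.29 ± 0.14 (adjusted p = 0.0866).

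In CL316243 livers 2 of 9 members were called between genotypes, Tubb2a and Tuba1b, both lower in AAKO (24.6% of all genes called). Tuba1b ran from 5.05 to 5.62 in CTRL and from 4.32 to 5.07 in AAKO with probe 1, a difference of -0.45 ± 0.12 (adjusted p = 0.00741). The other probe of Tuba1b did not show it. Its level in CTRL CL316243 livers was -1.16 in replicate 5 and between 3.78 and 4.30 in the others, and the difference was 0.86 ± 0.50 (adjusted p = 0.222) with that array and -0.05 ± 0.14 (adjusted p = 0.835) without it. The drop of Tuba1b with fasting was seen with both probes.

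**Figure D3:**
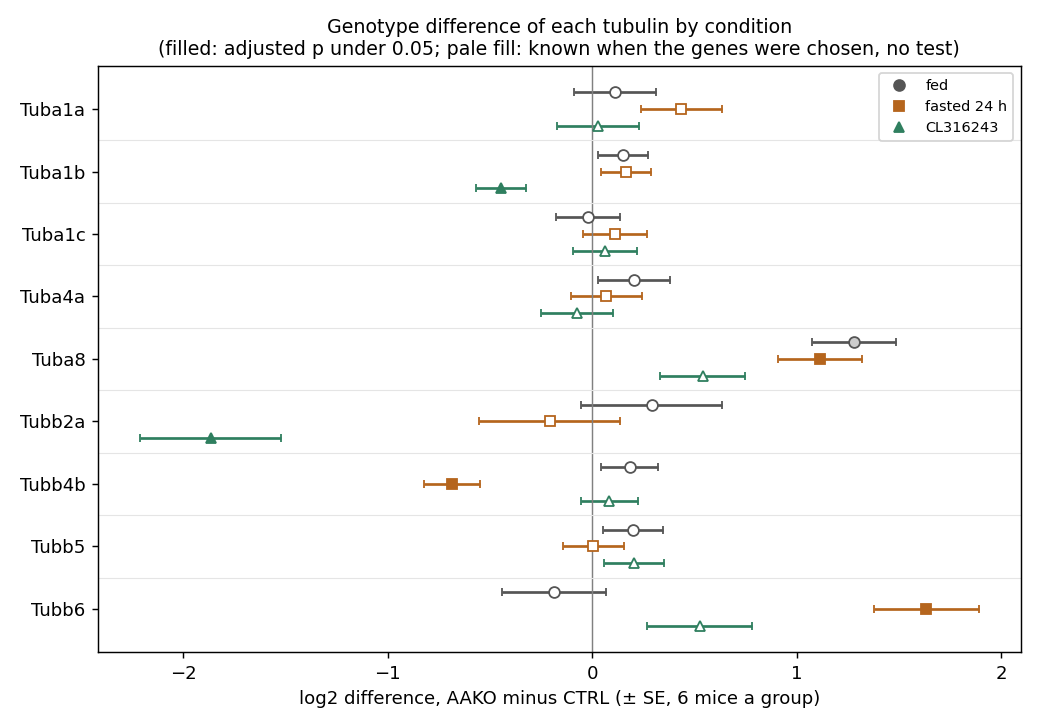
Log2 difference between AAKO and CTRL livers for each tested member (horizontal axis, ± SE) in fed, fasted and CL316243 livers; filled symbols have an adjusted p under 0.05, and the pale symbol of fed Tuba8 marks the difference known when the genes were chosen. Tubb6 stands at 1.63 and Tubb4b at -0.69 in fasted livers, and Tubb2a at -1.87 in CL316243 livers.

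**Figure D4:**
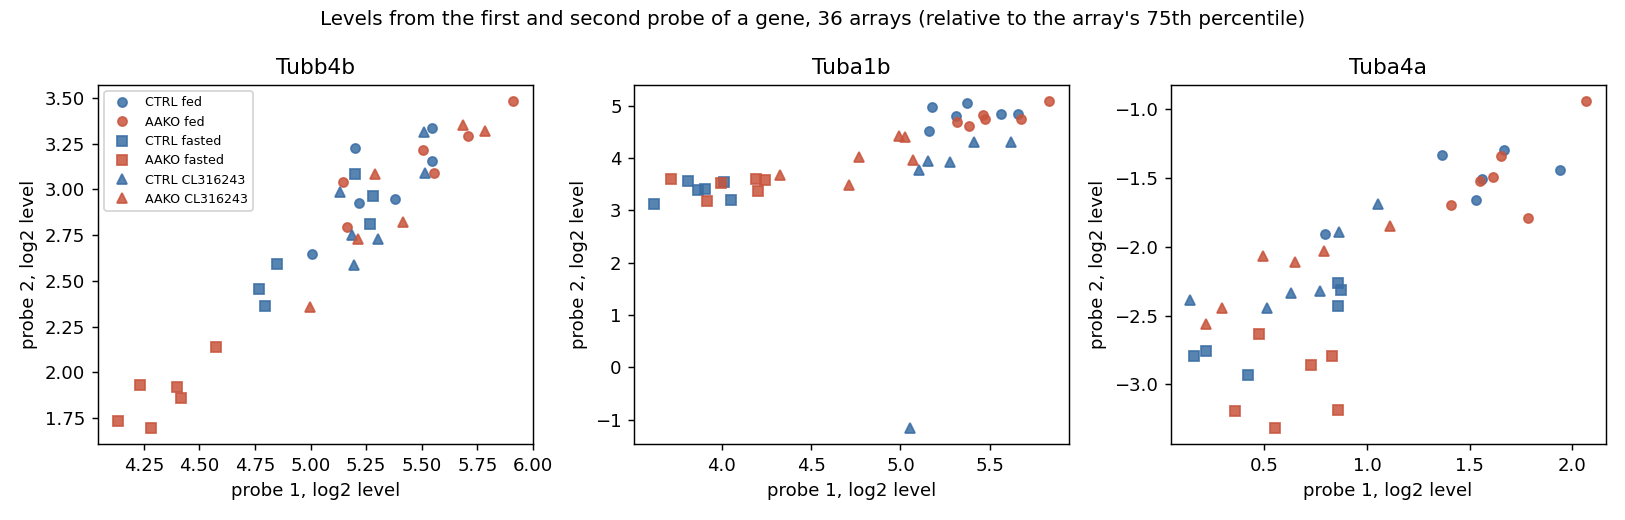
Level from probe 2 (vertical axis) against probe 1 (horizontal axis) for Tubb4b, Tuba1b and Tuba4a on the 36 arrays, log2 over the 75th percentile, with colour for genotype and shape for condition. AAKO fasted livers lie lowest on both Tubb4b probes, and 1 CTRL CL316243 array lies at -1.16 on probe 2 of Tuba1b.

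Tests of the interactions across the 9 members gave 2 calls with fasting (Tubb4b and Tubb6; 33.6% of all genes called), 2 with CL316243 (Tubb2a and Tuba1b; 10.9%) and 4 for the genotype difference in fasted against CL316243 livers (Tubb2a, Tuba1b and Tubb6 higher, Tubb4b lower; 31.8%). For Tuba1b these rest on probe 1, with values of -0.60 ± 0.17 (adjusted p = 0.0225) and 0.61 ± 0.17 (adjusted p = 0.00695). The first did not hold without AAKO fed replicate 4 (-0.52) or CTRL CL316243 replicate 4 (-0.51). Probe 2 without its outlying array gave 0.004 ± 0.20 and 0.15 ± 0.20, with adjusted p of 0.995 and 0.609.

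Tubb2b, the neighbour of Tubb2a, was not tested. Its probe was well above background on 2 CTRL fed, 1 AAKO fed, 0 fasted, 1 CTRL CL316243 and 2 AAKO CL316243 arrays, each of 6, and its group means lay between -6.64 and -5.67. No fold is given for it.

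Members were set against all other tested genes by Pearson's r over the 36 arrays, which share conditions and batches, and the 3 closest are named for the 3 members with the widest range. Tubb2a was closest to its pseudogene Tubb2a-ps2 (r = 0.946), then to Ormdl3, a regulator of sphingolipid synthesis (r = 0.891), and to the transcript ENSMUST00000170221 (r = 0.875). Tuba8 was closest to Atg16l2, a relative of the autophagy gene Atg16l1 (r = 0.892). It was followed by 1 probe with a locus name and the sequence tag BE944806 (r = 0.889 and 0.880). Tuba1b was closest to TC1651530, an unnamed transcript (r = 0.982), to Tmem14a (r = 0.947) and to Serpinh1, the collagen chaperone HSP47 (r = 0.940). Reads of Tubb2a and a near-identical pseudogene may be mixed on such arrays, and this was not measured. Between members, the deviations of mice from their group means correlated most for Tuba1c and Tubb2a (r = 0.782) and for Tubb2a and Tubb4b (r = 0.767), as a description over 36 livers.

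The remaining tubulins, the folding machinery, the enzymes that modify tubulin and the proteins that bind microtubules were taken as lists. In fed livers limma called 0 genes of these lists between genotypes, and 2 had an unadjusted p under 0.05, 1 each in the gamma-tubulin ring complex and in prefoldin. In fasted livers the tubulin modifying enzymes showed 1 of 17 tested genes higher and 10 lower in AAKO (21.9% and 27.3% of all genes were called higher and lower). Atat1, the acetyltransferase that acts on alpha tubulin within the microtubule, was lower by -2.54 ± 0.18 (adjusted p = 1.42e-12): its level was 0.62 ± 0.52 in CTRL fasted and -1.92 ± 0.41 in AAKO fasted (SD, n = 6), against 1.59 and 1.65 in the fed groups. Ttll1, Ttll5, Tpgs2 and Tpgs1, of the machinery that adds glutamate chains, and Agtpbp1, Agbl3 and Agbl5, which trim them, were also lower, with differences between -1.16 (Ttll1) and -0.25 (Tpgs1). So were Svbp and Vash1, the partners that remove the terminal tyrosine (-0.75 ± 0.10 and -0.26 ± 0.08). Ttll4, which starts glutamate chains, was higher by 1.103 ± 0.14 (adjusted p = 5.71e-08).

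After CL316243 the same list showed 1 higher and 4 lower genes in AAKO, with 13% and 11.6% of all genes called higher and lower. Ttll4 was higher again by 0.79 ± 0.14 (adjusted p = 5.49e-05), and Ttl, which restores the terminal tyrosine, was lower by -1.002 ± 0.11 (adjusted p = 7.36e-08). Atat1 differed by -0.29 ± 0.18 (adjusted p = 0.264). Against fed livers, 14 of the 17 were lower in fasted AAKO and 8 in fasted CTRL, with 2 and 3 higher. Over all genes 36.1% were lower and 27.5% higher in AAKO, and 24.1% lower and 19.7% higher in CTRL.

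Of the other 8 tested tubulin genes, 1 was higher and 3 lower in fasted AAKO than in fasted CTRL livers (21.9% and 27.3% of all genes). Tubd1, the delta tubulin of centrioles, was lower by -1.02 ± 0.11 (adjusted p = 1.82e-09), Tubg1, the gamma tubulin that seeds microtubules, by -0.84 ± 0.09 (adjusted p = 2.02e-09) and Tube1, the epsilon tubulin, by -0.76 ± 0.23 (adjusted p = 0.00584). Tuba3a was higher by 0.53 ± 0.13 (adjusted p = 0.00123). The gamma-tubulin ring complex had 2 of 8 higher, Mzt1 among them (0.54 ± 0.08), and 2 lower, Mzt2 among them (-0.34 ± 0.08). Tube1 was also lower in AAKO than in CTRL livers after CL316243, by -1.12 ± 0.23 (adjusted p = 0.000404).

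Among the folding factors, 0 of the 8 subunits of the chaperonin CCT, which folds new tubulin, were called between genotypes in fasted livers by limma, with 1 at an unadjusted p under 0.05. In this comparison 21.9% of all genes were called higher and 27.3% lower. Prefoldin, which hands tubulin to CCT, had 2 of 6 subunits higher, with Vbp1 at 0.45 ± 0.07, and 3 lower, with Pfdn6 at -0.996 ± 0.08 (adjusted p = 6.81e-12). The cofactors that assemble the dimer had 1 of 7 higher, Tbcc at 0.67 ± 0.10, and 3 lower, with Tbcb at -0.34 ± 0.08. Ttc5, the adaptor of tubulin mRNA decay, was lower by -0.37 ± 0.11 (adjusted p = 0.00736). Against fed CTRL livers, 3 CCT subunits were lower after fasting and 7 of 8 after CL316243, and none was higher in either, with 24.1% and 12.7% of all genes lower in these comparisons. In AAKO only Cct5 was called after CL316243 (-0.23 ± 0.07, adjusted p = 0.013). After fasting in AAKO, Cct3, Cct5, Cct7, Cct8 and Tcp1 were lower and Cct2 was higher (0.24 ± 0.07, adjusted p = 0.0037). In AAKO 36.1% of all genes were lower after fasting and 15.9% after CL316243.

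Between the fasted genotypes 21.9% of all genes were called higher and 27.3% lower in AAKO, beside which the counts of the next lists stand. Proteins that bind microtubules had 10 of 20 genes higher and 5 lower in fasted AAKO livers, with Clip1, a linker at growing ends, at 0.90 ± 0.10 and Mapre3 at -0.71 ± 0.10. Destabilising and severing factors had 1 of 9 higher and 3 lower: Fign, a severing enzyme, was at -2.06 ± 0.21 (adjusted p = 1.84e-09) and Stmn4 at 0.77 ± 0.14. Fign was also lower in AAKO after CL316243 (-1.14 ± 0.21, adjusted p = 0.000152). The motors had 6 of 23 higher and 9 lower, with Kif1a at 0.90 ± 0.25 and Kif13b at -0.70 ± 0.11. Of the other cytoskeletal genes 1 of 6 was higher (Actg1, 0.30 ± 0.10) and 2 lower (Krt8 at -0.47 ± 0.14 among them). In fasted against fed livers 4 of these 6, Actb, Actg1, Acta2 and Krt8, were lower in each genotype (24.1% of all genes were lower in CTRL and 36.1% in AAKO).

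**Figure D5:**
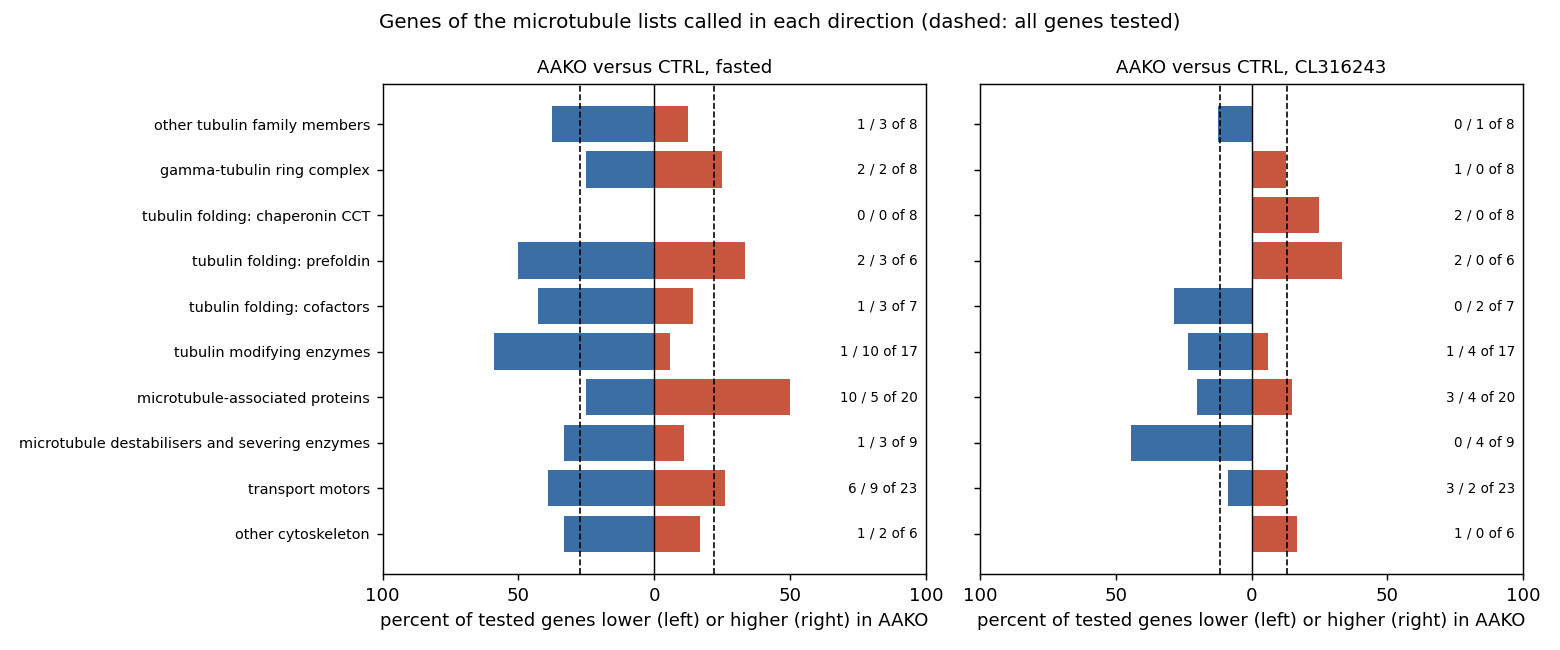
Percent of the tested genes of each list called higher (red, right) or lower (blue, left) in AAKO than in CTRL livers, fasted and after CL316243; the dashed lines give the same percent over all genes tested, and the counts at the right read higher / lower of tested. The modifying enzymes extend left (10 of 17 lower) and the microtubule-associated proteins right (10 of 20 higher) in fasted livers.

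Liver is a mixture of cells, and fewer cells of a type cannot be told apart from less RNA per cell. Hepatocyte markers (Alb, Apoa1, Ttr, Trf, Serpina1a and Cps1) were all well above background in every group. Their summed linear level, relative to the 75th percentile, ran from 4357 to 4712 in AAKO fasted and from 4696 to 5204 in CTRL fasted livers, with 1 of 6 called higher and 3 lower in AAKO. Over all genes 21.9% were called higher and 27.3% lower in this comparison, so small counts of markers do not stand out. Neutrophil markers were higher for 4 of 5 genes in the same comparison (summed level 203 to 317 against 158 to 244; Retnlg 3.86 ± 1.01), and Ly6g was not. Stellate cell markers were higher for 2 of 6 (122 to 161 against 96.1 to 121) and endothelial markers for 3 of 6 (49.4 to 63.1 against 28.7 to 62.0, Lyve1 at 1.83 ± 0.28). Adipocyte markers were higher for 2 of 4 and lower for 1, Adipoq (summed level 6.41 to 14.8 against 3.22 to 12.4), and Cfd was above background on no AAKO fasted array. Cholangiocyte markers were lower for 2 of 5 (Sox9 at -0.89 ± 0.23), lymphocyte markers for 1 of 6 and red blood cell markers for 1 of 2 tested, and dividing cell markers were higher for 1 of 5. No Kupffer cell marker was called in this comparison. These lists were read in the same fasted livers as Tubb6, Tuba8 and Tubb4b, and their part in those genotype differences was not tested.

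Beside the fall of tubulins with fasting, Kupffer cell markers were lower for 2 of 6 genes in CTRL and 4 of 6 in AAKO, and cholangiocyte markers for 3 of 5 in each. In AAKO neutrophil markers were higher for 4 of 5 (1 of 5 in CTRL), hepatocyte markers lower for 4 of 6 and higher for 1 (1 lower and 2 higher in CTRL), red blood cell markers lower for 2 of 2 (1 in CTRL) and lymphocyte markers lower for 3 of 6 and higher for 1 (1 and 1 in CTRL). Dividing cell markers had 1 of 5 tested genes lower and 0 higher in each genotype. Summed stellate cell levels ran from 73.5 to 99.4 in fed and 96.1 to 121 in fasted CTRL livers. In AAKO they ran from 76.85 to 95.1 and from 122 to 161. Endothelial sums ran from 46.4 to 68.7 and 28.7 to 62.0 in CTRL, and 56.2 to 68.1 and 49.4 to 63.1 in AAKO. Genes of this list went opposite ways. From fed to fasted AAKO the mean of Clec4g went from 5.15 to 4.44 and that of Kdr from 2.87 to 2.32. Lyve1 went from 0.17 to 2.69 and Cdh5 from 1.13 to 1.61, and Stab2 and Pecam1 also had higher means. In CTRL the means of Clec4g, Kdr and Cdh5 were lower after fasting and those of Lyve1, Stab2 and Pecam1 higher. Adipocyte sums ran from 3.07 to 4.88 and 3.22 to 12.4 in CTRL, and 3.60 to 5.04 and 6.41 to 14.8 in AAKO. The genes behind these sums did not move together. In AAKO, Fabp4 (1.26 ± 0.24) and Plin1 (0.79 ± 0.19) were called higher after fasting. Adipoq (-0.09 ± 0.34) and Cfd were not called there, and the difference of Cfd was negative. In CTRL, Adipoq alone of this list was called, higher by 0.95 ± 0.34. Over all genes 24.1% were lower and 19.7% higher in CTRL, and 36.1% and 27.5% in AAKO. In the CL316243 comparison of genotypes, where Tubb2a differed, hepatocyte markers had 1 of 6 higher, endothelial markers 2 of 6 higher, and Kupffer and stellate cell markers 0 of 6 called by limma and 0 at an unadjusted p under 0.05. The cholangiocyte marker Sox9 (-0.74 ± 0.23, adjusted p = 0.0184) and the dividing cell marker Cenpa (-0.67 ± 0.13, adjusted p = 0.000318) were lower, and no other gene of their lists was called. Over all genes 13% were higher and 11.6% lower between the CL316243 genotypes. The part of these cell types in the tubulin values was not tested.

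Between 33128 and 37200 of 56605 probes were well above background per array, and arrays of a group correlated at 0.978 to 0.995. CTRL fasted replicate 2 held the highest Tubb6 value of its group, 2.07. Without it, the counts of called members were 3 between the fasted genotypes, 8 for fasting in CTRL and 2 for the interaction with fasting, as with it. The labels do not say that mice of a group were independent litters or cages, so the tests measure the spread between these mice.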

How the data were processed

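Liver RNA of 36 mice was read on one-colour arrays. The deposited scanner files hold spot intensity, per the file headers from Agilent Feature Extraction 10.10.1.1, which had subtracted a fitted background and removed a trend within the array, with other columns for flags (0 or 1), probe names and positions on mm9. The authors also deposited a log2 table of 36898 probes, used as an alternative. Its columns followed the log2 signal of their own arrays (r from 0.99957 to 0.99981), with medians of 6.91, 6.93, 6.97, 7.01, 6.91 and 6.88 in CTRL fed, AAKO fed, CTRL fasted, AAKO fasted, CTRL CL316243 and AAKO CL316243; its normalization and probe filter stay unknown.

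The processed signal was taken as log2 and the 75th percentile of each array subtracted, over 59305 spots other than controls. Outlier-flagged spots (2701 over all arrays) were left out, none of them on a member probe, and repeated spots averaged. RefSeq accessions named 32994 of 56605 probes. A gene was its probe with the highest mean, tested if well above background on at least 5 of 6 arrays of a group. All 36 arrays entered 1 limma 3.58.1 fit (R 4.3.3, and version 1.17.8 of data.table) of 6 group means and the wash batch, with Benjamini-Hochberg adjustment over 24097 genes, two-sided. The fit was tested on simulated data. The number of arrays limits the precision.

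The members and lists were chosen with earlier results of these data known. All members are described. In other lists the gene with the highest and the lowest called difference between fasted genotypes is named, and the 3 genes most alike for the 3 members of widest range. The further tubulin, modifying enzyme, Fign and cytoskeletal genes named were chosen after their values were seen. Alternatives were the background correction, the scaling, the filter, the choice of probe, batch and slide, the replicate block, the groups in the fit and leaving out each array.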

Additional observations from a re-analysis of the deposited data

Results flagged for a closer look

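Over 90 sets of 6 values (15 tested probes in 6 groups), 5 had a highest or lowest mouse far from the others by Dixon's criterion, and chance flags about 1 in 20. On probe 2 of Tuba1b, CTRL CL316243 replicate 5 lay at -1.16. On probe 1 of Tuba1c, CTRL fed replicate 6 was the lowest at 6.48, and on probe 3 AAKO fed replicate 4 was the highest at 2.65. For Tubb6, CTRL fed replicate 4 was the highest at 2.37 and CTRL CL316243 replicate 4 the highest at 2.48.

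The genotype difference itself changed between conditions, by a limma interaction, for 4 members. From fed to fasted livers it changed by -0.87 for Tubb4b and 1.82 for Tubb6. From fed to CL316243 livers it changed by -0.60 for Tuba1b and -2.15 for Tubb2a. Between CL316243 and fasted livers it changed by -0.77 for Tubb4b, 0.61 for Tuba1b, 1.66 for Tubb2a and 1.11 for Tubb6. The values for Tuba1b are those of probe 1 and were not seen with probe 2.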

How the results depend on the processing

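Over 1254 alternatives for called member differences, leaving out the fed difference of Tuba8, 1184 kept direction and call, 67 kept the direction only and 3 turned. All 3 were Tuba1b with the mean of all probes (0.21 for the genotypes after CL316243, 0.16 for the CL316243 interaction and -0.075 for fasted minus CL316243), where probe 2 holds the outlying array. With that array left out, an alternative chosen after seeing the data, the first was -0.27 (adjusted p = 0.109). With the fed difference of Tuba8 counted in, 708 of 1277 alternatives left out 1 array, a small change, and 688 of these kept direction and call. Wash batch 1 alone kept 31 of 51 calls and wash batch 2 alone 32. Counts of called members moved by over 1.5 times as follows, with fewer arrays in each wash batch; those for the fed genotypes concern Tuba8 alone, which was chosen with that difference known, and say nothing of stability. In wash batch 1 alone they were 0 for the fed genotypes, 1 for the CL316243 genotypes, 5 for fasting in CTRL, 1 for CL316243 in CTRL, 2 for fasted against CL316243 in CTRL, 0 for the CL316243 interaction and 0 for fasted minus CL316243. In wash batch 2 alone they were 0 for the fed and 0 for the CL316243 genotypes, 1 for CL316243 in CTRL and 1 in AAKO, 1 for the fasting interaction, 0 for the CL316243 interaction and 2 for fasted minus CL316243. With only the compared groups in the fit they were 0 for the fed and 1 for the CL316243 genotypes, and with the mean of probes 1 for the CL316243 genotypes and 1 for their interaction. Leaving out 1 array gave 3 to 4 and 2 to 3 calls for the fasted and CL316243 genotypes, 7 to 9 and 8 to 8 for fasting in CTRL and AAKO, 2 to 4 and 4 to 7 for CL316243, 5 to 7 and 6 to 7 for fasted against CL316243, and 2 to 2, 1 to 3 and 4 to 4 for the interactions. With the replicate block 3 members were called between the CL316243 genotypes, Tuba8 added (0.55, adjusted p = 0.0324), and no other count changed; same-numbered arrays deviated together with r from -0.305 to 0.361 over 90 pairs, and 6 of 36 arrays were closest to their own number, so the numbers do not pair the mice. Signal near background limits Tubb2b alone among the members.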
